A study of Saccharomyces cerevisiae with 26 samples.

Results

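The 8 genes described here are the budding yeast flocculin gene FLO11, 6 regulators of filamentous growth (FLO8, MSS11, PHD1, TEC1, MGA1 and SFG1) and PGU1, which encodes a secreted endopolygalacturonase. They were chosen by name, not by a measured value, although with earlier results of these data known. They are 8 of the 6003 genes placed on the data. Of the 26 libraries, 8 hold strand-specific RNA sequencing of total RNA depleted of ribosomal RNA, and 8 hold ChIP of the RNA polymerase II subunit Rpb3. Each of these assays covers WT and the strain labelled fkh1Δfkh2Δ2C, either asynchronous in the rich medium YEPD at room temperature or stopped in G1 by 4 hours of α-factor in the same medium, with 2 libraries per group. The Forkhead transcription factor genes FKH1 and FKH2 are both marked as deleted in the strain tag of fkh1Δfkh2Δ2C, although its sample titles repeat fkh1Δ. The remaining 10 libraries are BrdU immunoprecipitations, with 2 each from WT, fkh1Δ, fkh2Δ, fkh1Δfkh2Δ and fkh1Δfkh2Δ2C, taken after 4 hours of α-factor and then 1 hour with BrdU in hydroxyurea, a drug that stalls replication forks. The sources used here give neither the strain background, nor the meaning of 2C, nor the source of the replicates. P-values therefore measure the spread between these libraries, which may be technical. Fewer cells of a kind and less RNA per cell cannot be told apart in such bulk samples.

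Filamentous growth is a form of yeast growth in which cells elongate, stay attached and invade the substrate, and it needs the cell-surface flocculin Flo11. Several branches meet at the long FLO11 promoter. A MAP kinase branch acts through Ste12 and its partner Tec1, and the cAMP and protein kinase A branch acts through Flo8, which works with Mss11. Phd1, Mga1 and Sfg1 are further positive regulators, and PGU1 is a known target of Ste12 and Tec1. α-Factor signals through the mating pathway, which shares kinases and Ste12 with the filamentation branch. During that response the Tec1 protein is known to be marked for degradation, a step that neither RNA nor Rpb3 measures. The laboratory strain S288C is known to carry a nonsense mutation in FLO8, and the gene table of that strain annotates FLO8 as a pseudogene.

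All values are the mean, over the 50 bp bins of a gene, of the signal the authors had normalized, so they are per length and can be compared between genes. Differences are log2 differences, computed after adding a small constant to the signal and tested with limma across 5402 genes at an adjusted p of 0.05. Counting intervals and detection limits would need the sequencing depth, which is unknown. Only 1 asynchronous RNA library per strain covers the Crick strand, which holds FLO11, FLO8 and MSS11. In RNA, 72.4% to 83.2% of bins were at 0, and the arrested WT libraries were the sparsest, at 80.8% to 83.2%. The smallest bin signal above 0 was 1.12 and 1.38 in those libraries and 0.62 to 1.12 in the others. FKH1 had an Rpb3 signal of 36.8 ± 2.42 (SD, n = 2) in asynchronous and 34.1 ± 9.14 in arrested WT, but only 3.39 ± 0.303 and 5.36 ± 3.37 in the strain labelled fkh1Δfkh2Δ2C, called the double mutant from here on. FKH2 was not lower over the whole gene in that strain. Its Rpb3 signal stayed between 38.8 and 62.5 (group means) over the first 2000 bp and fell to between 0.970 and 4.50 from there to the end of the gene, where WT had 28.2 to 39.4. The first asynchronous WT Rpb3 library stood apart from the rest. Its correlation across genes was 0.553 with its own replicate and 0.357 to 0.560 with all others, whereas the other 3 replicate pairs reached 0.967 to 0.980. Rpb3 results that rest on asynchronous WT are therefore given with and without it.

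Under arrest, Rpb3 rose over PGU1 and MSS11 in both strains and over TEC1 in the double mutant, while FLO11 did not pass in either strain. In WT, 2 of the 6 members tested were called, both higher, where 3.74% of all genes tested were called, 2.37% higher and 1.37% lower. In the double mutant 3 of 6 were called, all higher, where 2.33% of all genes tested were called, 1.74% higher and 0.592% lower. Unadjusted p-values were under 0.05 for 3 of the 6 in each strain, beside 17% of genes in WT and 14% in the double mutant. FLO11 and MGA1 were among the 10% of genes with the lowest Rpb3 signal and were left out of that fit. For those genes the values below come from a fit without the filter. The median log2 difference of the 6 tested members was 0.16 in WT and 0.20 in the double mutant, beside -0.02 over all genes in each. The share of all genes whose libraries did not overlap between the stages was not counted in either assay. Where such an order is given below, it describes the libraries and is not known to be particular to the member.

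**Figure D1:**
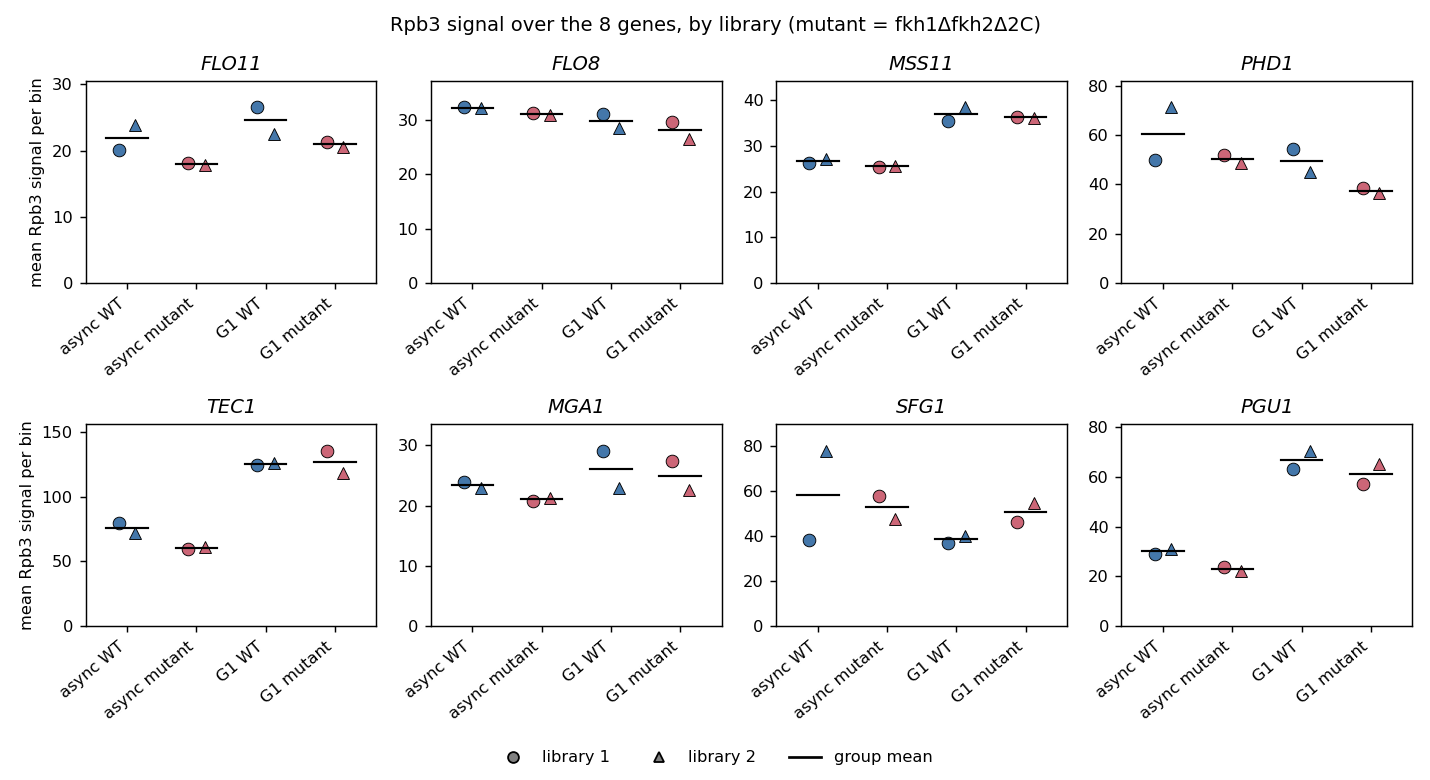
Rpb3 signal (mean per 50 bp bin, arbitrary units, linear axes that start at 0) of each of the 8 genes in the 8 Rpb3 libraries, by strain and stage, with 1 point per library and a bar at the group mean. Arrested libraries lie above asynchronous ones for PGU1, TEC1 and MSS11 in both strains, and the asynchronous WT libraries of SFG1 lie at 38.3 and 77.8.

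TEC1, whose product joins Ste12 at the promoters of filamentation genes, had the highest mean Rpb3 signal of the 8 genes in every group. In asynchronous WT that signal was 80.0 and 72.0, and after arrest it was 124.7 and 126.0. The double mutant had 59.9 and 61.3 when asynchronous and 135.5 and 118.2 when arrested. The arrested libraries of each strain were above both asynchronous libraries. The ratio of the means was 1.65 in WT and 2.09 in the double mutant. In WT the log2 difference of 0.70 (SE 0.166) did not pass with limma (adjusted p = 0.0837), and in the double mutant the difference of 1.02 passed (adjusted p = 0.0315). Without the first asynchronous WT library the WT difference was 0.77 (SE 0.118, limma adjusted p = 0.00534), and without the second it was 0.62 (limma adjusted p = 0.00402). The call in the double mutant held in every other setting that kept all libraries. Among the fits that left out 1 library, it held only where that was an asynchronous WT library, and was lost without any 1 of the other 6. A gain was seen over the gene and the 500 bp past its end. Over the 500 bp before the start, the libraries of all groups ranged from 34.3 to 56.3. That range pools the stages, so it does not show whether they differed there. Over the step from 1000 to 1500 bp the group means were 60.1 and 85.8 when asynchronous and 137.9 and 139.2 under arrest. In the step from 1500 to 2000 bp, past the gene, the WT mean went from 64.7 to 98.4 and that of the double mutant from 62.1 to 108.2. TEC1 ranked above 89.5% of genes in asynchronous WT and above 96.1% in arrested WT.

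TEC1 sense RNA was 0.564 and 0.836 in asynchronous WT and 1.96 and 1.62 in arrested WT. The double mutant had 0.626 and 0.586 when asynchronous and 0.854 and 1.95 when arrested. All arrested libraries were higher than all asynchronous libraries, and the first arrested library of the double mutant was close to them. The log2 differences of 1.30 in WT (SE 0.402, limma adjusted p = 0.136) and 1.03 in the double mutant (limma adjusted p = 0.454) did not pass.

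PGU1 had the steepest Rpb3 gain of the 8 genes, from the lower part of the genome to its upper part. Its Rpb3 signal was 29.0 and 31.2 in asynchronous WT and 63.3 and 70.7 in arrested WT. The double mutant libraries were at 23.8 and 22.1 when asynchronous and at 57.1 and 65.2 when arrested. The stages did not overlap in either strain, and the ratio of the means was 2.23 in WT and 2.67 in the double mutant. The log2 difference was 1.06 (SE 0.0970, limma adjusted p = 0.00312) in WT and 1.27 (limma adjusted p = 0.00313) in the double mutant. Without the first asynchronous WT library the WT difference was 1.01 (limma adjusted p = 0.00101), and the call was lost without the second arrested WT library (limma adjusted p = 0.0501). In the double mutant it was lost without either of its own asynchronous libraries. PGU1 ranked above 15.3% of genes in asynchronous WT and above 87.4% in arrested WT.

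Sense RNA of PGU1 stayed low beside this Rpb3 signal. It was 0.0400 and 0.120 in asynchronous WT and 0.204 and 0.188 in arrested WT, and in the double mutant it was 0.0909 and 0 when asynchronous and 0.0682 and 0 when arrested. At most 4 of the gene's 22 bins held any sense RNA in a library. The log2 differences of 0.93 in WT (limma adjusted p = 0.502) and -0.12 in the double mutant (limma adjusted p = 0.974) did not pass. RNA on the other strand was higher. The arrested libraries had 0.714 and 1.03 (WT) and 0.545 and 0.932 (double mutant), with signal in 10 to 13 of the 22 bins. In the 1 asynchronous library per strain that covers that strand it was 0.0800 in WT and 0 in the double mutant. Neither the log2 difference of 2.71 in WT (limma adjusted p = 0.239) nor that in the double mutant (limma adjusted p = 0.331), which has no fold against a library at 0, passed in a fit added after these values had been seen, in which 0.0555% of genes were called in WT, none of them higher, and 0% in the double mutant. Unadjusted p-values under 0.05 were found for 12.9% of genes in WT and 5.59% in the double mutant, PGU1 among both.

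The higher Rpb3 signal was not limited to the PGU1 gene body. In the step from 1000 to 1500 bp upstream the WT mean went from 34.5 to 70.6 (34.7 to 64.7 in the double mutant). From 2000 to 2500 bp past the start, beyond the end of the gene, the WT mean went from 29.8 to 96.7 (22.4 to 81.1 in the double mutant). The increase thus ran through at least 4 kb around the gene, and its largest step lay downstream of it. From the start of the gene to 3000 bp, sense RNA was at most 0.250 in any group mean. From 3000 to 3500 bp it went from 0.326 ± 0.213 to 2.27 ± 2.18 in WT and from 0.319 ± 0.0799 to 0.880 ± 0.0771 in the double mutant (SD, n = 2). PGU1 lies 21.8 kb from the end of chromosome X (Watson strand, 722801 to 723900 in the files' coordinates, build not stated).

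**Figure D2:**
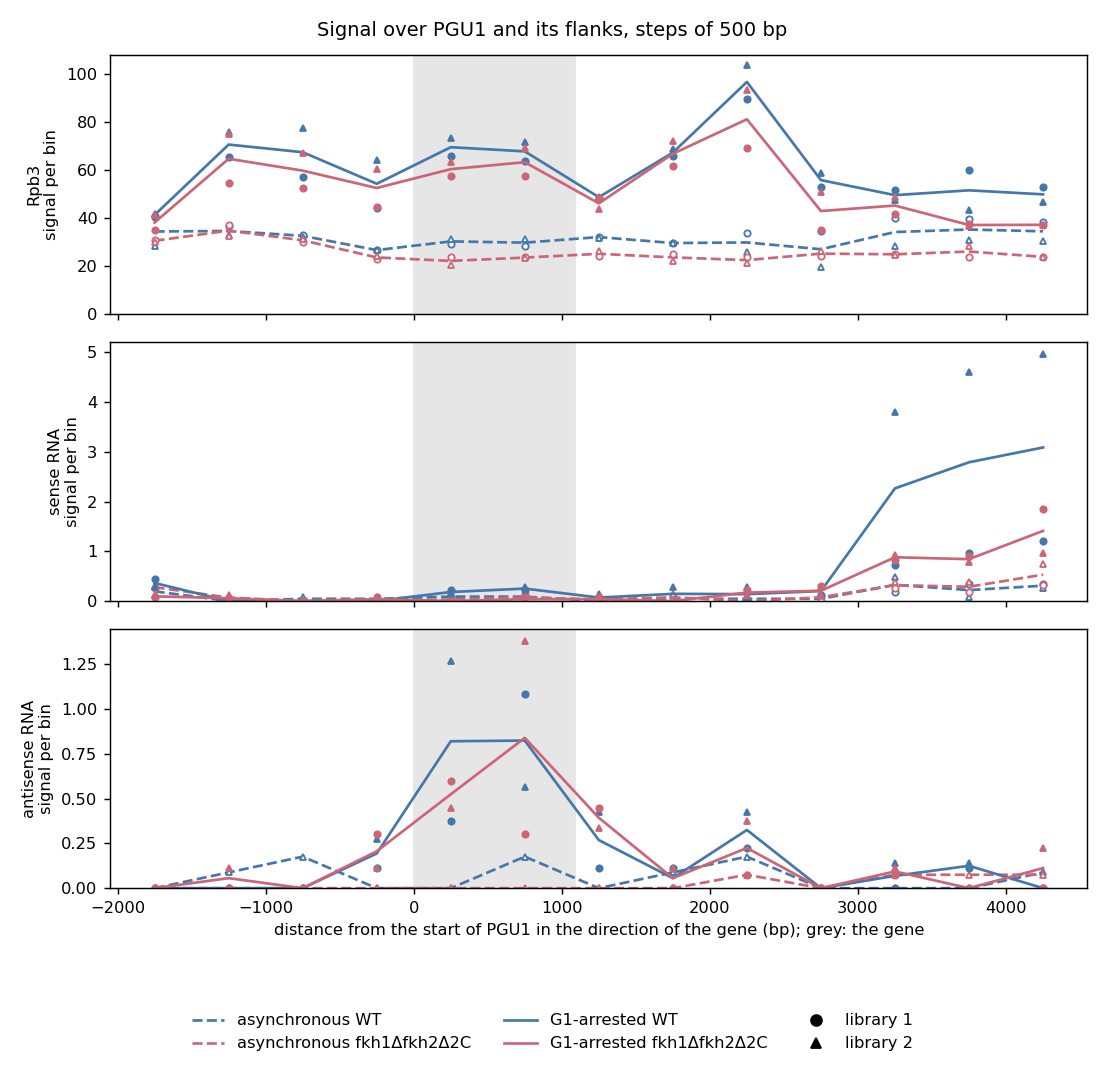
Rpb3, sense RNA and antisense RNA signal (mean per bin, arbitrary units) in steps of 500 bp from 2000 bp before the start of PGU1 (distance 0) to 4500 bp after it, with WT in blue, the double mutant in red, dashed lines for asynchronous and solid lines for arrested group means, and points for single libraries. The arrested Rpb3 lines lie above the asynchronous ones on both sides of the gene (grey) and reach 96.7 in WT downstream, while antisense RNA over the gene appears in the arrested libraries. Asynchronous antisense RNA comes from 1 library per strain.

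MSS11, whose product acts with Flo8 at the FLO11 promoter, gained by a similar ratio in both strains. Its Rpb3 signal was 26.4 and 27.2 in asynchronous WT and 35.6 and 38.5 in arrested WT. For the double mutant it was 25.4 and 25.7 when asynchronous and 36.4 and 36.1 when arrested. The 4 arrested libraries were all above the 4 asynchronous ones, with a ratio of means of 1.38 in WT and 1.42 in the double mutant. The log2 difference was 0.41 (SE 0.0622, limma adjusted p = 0.0177) in WT and 0.45 (limma adjusted p = 0.0200) in the double mutant. It was 0.39 (limma adjusted p = 0.0173) in WT without the first asynchronous WT library. The WT call was lost without any 1 of the 6 libraries other than the asynchronous WT ones, and the call in the double mutant without any 1 of its own 4. With the median over bins the double mutant did not pass (0.41, limma adjusted p = 0.0629), and with only the groups compared WT did not (limma adjusted p = 0.243). Rpb3 over MSS11 was unevenly spread. With the gene cut into 3 equal parts, the ratio of the part at the end to the part at the start was 0.459 to 0.739 in the 8 libraries, where the 10th percentile of that ratio over 3758 genes was 0.827 and the median 1.04. MSS11 RNA was 0.326 in asynchronous WT, 0.435 in the asynchronous double mutant, 0.683 and 0.425 in arrested WT and 0.310 and 0.599 in the arrested double mutant. The WT difference of 0.64 (limma adjusted p = 0.580) did not pass.

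FLO8, whose product acts in the protein kinase A branch, was not called in either assay. Its Rpb3 signal was 32.3 in both asynchronous WT libraries, 31.4 and 30.9 in the asynchronous double mutant, 31.1 and 28.6 in arrested WT and 29.7 and 26.5 in the arrested double mutant. Arrested libraries were below asynchronous ones in each strain, by a log2 difference of -0.10 in WT (limma adjusted p = 0.510) and -0.13 in the double mutant (limma adjusted p = 0.481), which did not pass. The 95% interval of the WT difference was -0.28 to 0.07. FLO8 sense RNA was 0.392 in asynchronous WT and 0.153 and 0.141 in arrested WT, a difference of -1.13 that did not pass (95% interval -2.64 to 0.38, limma adjusted p = 0.388). The double mutant had 0.311 when asynchronous and 0.122 and 0.343 when arrested. FLO8 sense RNA lay in 15 of 49 bins in asynchronous WT and in 4 and 5 in arrested WT.

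SFG1, which encodes a nuclear regulator needed for pseudohyphal growth, was the 1 member whose RNA was called. Its sense RNA was 1.45 and 1.32 in asynchronous WT and 0.410 and 0.263 in arrested WT. The double mutant had 0.653 and 0.743 when asynchronous and 0.500 and 0.818 when arrested. SFG1 signal lay in 18 and 14 of 21 bins in asynchronous WT, 5 and 4 in arrested WT and 11 to 14 in the double mutant. The part of the sparse arrested WT libraries in this fall was not tested. In WT the stages were far apart, and in the double mutant they overlapped. The arrested WT mean was 0.242 of the asynchronous WT mean, and the log2 difference of -1.89 (SE 0.357) passed with limma (adjusted p = 0.0260). This was 1 of the 8 members, where 2.24% of all genes tested were called, 0.944% higher and 1.3% lower. Another 3, PHD1, TEC1 and MGA1, had an unadjusted p under 0.05, as did 18.5% of genes. The call was lost when any 1 of the 8 RNA libraries was left out (limma adjusted p from 0.0557 to 0.201) and when no filter on low values was used (limma adjusted p = 0.0738). In the double mutant the difference was -0.11 (limma adjusted p = 0.950), and no member was called there, where 0.74% of genes were called, 0.444% higher and 0.296% lower. TEC1 alone had an unadjusted p under 0.05 there, as did 9.42% of genes. The median RNA difference of the 8 members was -0.71 in WT and -0.11 in the double mutant, beside -0.18 and -0.16 over all genes. The interaction of strain and arrest was 1.78 (SE 0.504) for SFG1 and did not pass with limma (adjusted p = 1.0, unadjusted p = 0.00580). No gene passed that limma test in RNA (0% called), and 3.96% had an unadjusted p under 0.05, among them SFG1 and MGA1.

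Rpb3 over SFG1 depended on the library that stood apart. Its signal was 38.3 and 77.8 in asynchronous WT, 57.7 and 47.5 in the asynchronous double mutant, 36.9 and 40.2 in arrested WT and 46.2 and 54.7 in the arrested double mutant. The first asynchronous WT library lay with the arrested WT libraries and the second was the highest of all. With both, the WT difference was -0.47 (limma adjusted p = 0.457). Without the second, it was 0.006. Without the first, it was -0.95 (SE 0.136, limma adjusted p = 0.00386), and the interaction was 0.89 (SE 0.176), which did not pass with limma (adjusted p = 0.173, unadjusted p = 0.000927). The difference in the double mutant was -0.05 (limma adjusted p = 0.946).

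PHD1, an enhancer of pseudohyphal growth when overexpressed, had lower group means under arrest in both assays. Its sense RNA was 1.95 and 2.42 in asynchronous WT, 1.12 and 1.43 in the asynchronous double mutant, 1.23 and 0.605 in arrested WT and 0.785 and 0.891 in the arrested double mutant. Arrested libraries were below asynchronous ones within each strain, but the differences of -1.27 in WT (limma adjusted p = 0.110) and -0.56 in the double mutant (limma adjusted p = 0.690) did not pass. Its Rpb3 signal was 49.8 and 71.2 in asynchronous WT, 51.8 and 48.6 in the asynchronous double mutant, 54.2 and 45.0 in arrested WT and 38.3 and 36.3 in the arrested double mutant. The WT stages overlapped and those of the double mutant did not. Without the second asynchronous WT library, the WT difference in Rpb3 was -0.01. With all libraries, the Rpb3 differences were -0.25 in WT (limma adjusted p = 0.494) and -0.39 in the double mutant (limma adjusted p = 0.371). Without the first asynchronous WT library both passed with limma, at -0.49 in WT (adjusted p = 0.0305) and -0.39 in the double mutant (adjusted p = 0.0226). In that fit 3 of the 6 members were called higher and 2 lower in WT, where 10.8% of genes were called, 5.39% higher and 5.44% lower. The double mutant had 3 higher and 1 lower, where 21.1% of genes were called, 9.94% higher and 11.2% lower.

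MGA1, which encodes a protein with similarity to heat shock transcription factors, was low in both assays. Its Rpb3 signal was 24.0 and 23.0 in asynchronous WT, 20.9 and 21.3 in the asynchronous double mutant, 29.2 and 22.9 in arrested WT and 27.4 and 22.6 in the arrested double mutant, and ranked above 6.38% of genes in asynchronous WT. The second arrested library of each strain lay near the asynchronous ones. The unfiltered differences were 0.12 in WT (limma adjusted p = 0.659) and 0.21 in the double mutant (limma adjusted p = 0.510). MGA1 RNA was 0.220 and 0.298 in asynchronous WT and 0.116 and 0 in arrested WT, a difference of -1.62 that did not pass (limma adjusted p = 0.246). In the double mutant it was 0.228 and 0.0776 when asynchronous and 0.388 and 0.129 when arrested, and these overlapped. MGA1 RNA lay in 4 and 7 of 29 bins in asynchronous WT and in 3 and 0 in arrested WT.

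**Figure D3:**
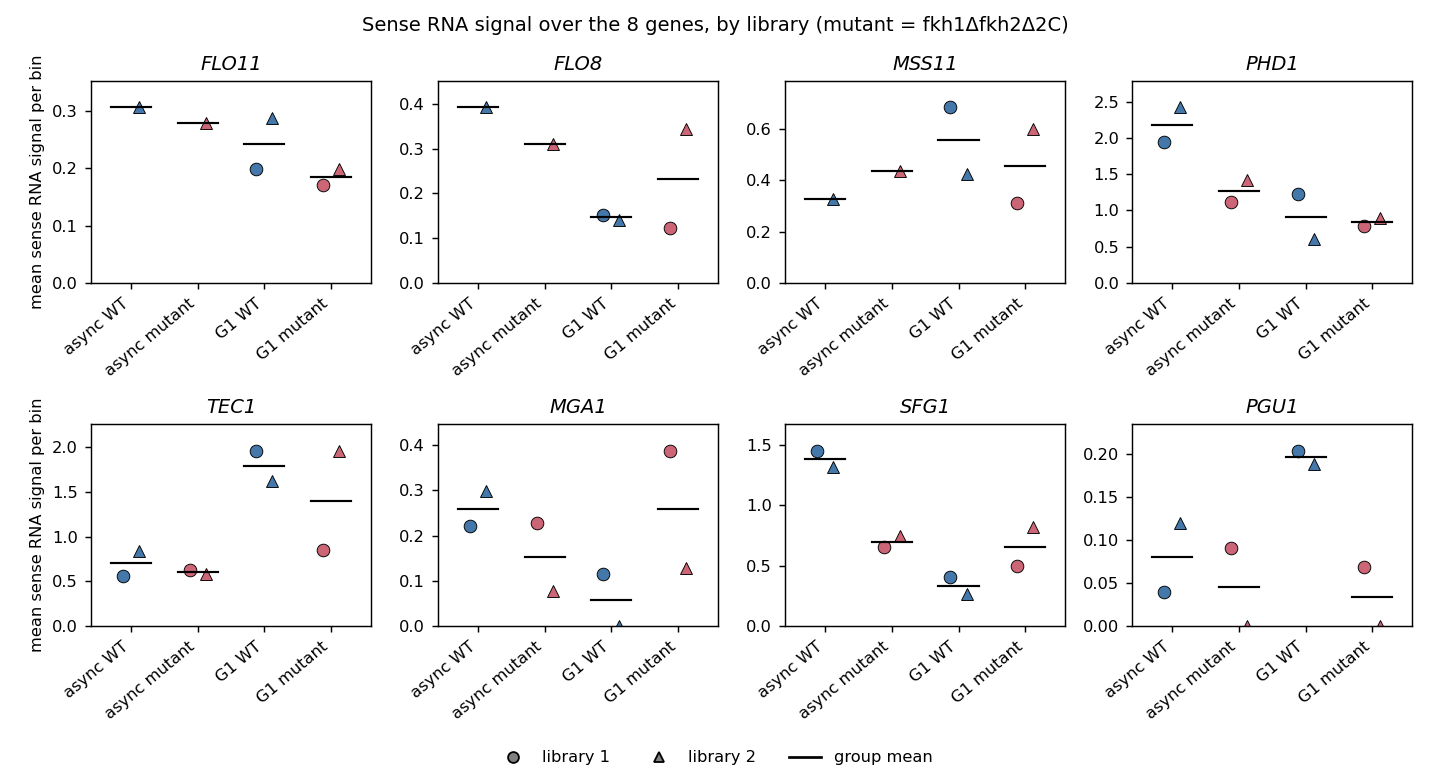
Sense RNA signal (mean per 50 bp bin, arbitrary units, linear axes that start at 0) of the 8 genes in the RNA libraries, by strain and stage, with 1 point per library and a bar at the group mean. FLO11, FLO8 and MSS11 have 1 asynchronous library per strain. SFG1 falls from 1.45 and 1.32 to 0.410 and 0.263 in WT, and TEC1 is higher in every arrested library.

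FLO11 itself, the flocculin on which these regulators act, had a low mean Rpb3 signal and ranked higher in RNA. That mean includes the low stretch in the middle of the gene described below. Its Rpb3 signal was 20.1 and 23.8 in asynchronous WT, 26.5 and 22.6 in arrested WT, 18.1 and 17.8 in the asynchronous double mutant and 21.3 and 20.5 in the arrested double mutant. The WT stages overlapped, while in the double mutant both arrested libraries were above both asynchronous ones. The unfiltered differences were 0.14 in WT (95% interval -0.09 to 0.37, limma adjusted p = 0.517) and 0.19 in the double mutant (95% interval -0.04 to 0.42, limma adjusted p = 0.449). Only 5.66% of genes had a lower signal in asynchronous WT and 7.76% in arrested WT. FLO11 sense RNA was 0.306 in asynchronous WT, 0.278 in the asynchronous double mutant, 0.198 and 0.287 in arrested WT and 0.172 and 0.198 in the arrested double mutant, in 12 to 20 of 83 bins, which placed it above 30.4% of genes in asynchronous and 29.0% in arrested WT. RNA differences of -0.29 in WT (limma adjusted p = 0.814) and -0.47 in the double mutant (limma adjusted p = 0.832) did not pass.

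Part of the low FLO11 signal lay in its middle. From 1000 to 2500 bp after the start the Rpb3 signal was 8.35 ± 2.40 in asynchronous WT, 9.44 ± 1.06 in arrested WT, 6.90 ± 0.106 in the asynchronous double mutant and 7.11 ± 0.203 in the arrested double mutant (SD, n = 2). Over the rest of the gene the same groups had 29.7 ± 2.82, 33.1 ± 4.98, 24.2 ± 0.376 and 28.8 ± 1.02. The rest of FLO11 lay above the 10th percentile of Rpb3 over genes in asynchronous WT (27.7), arrested WT (26.2) and the arrested double mutant (27.4), and below it in the asynchronous double mutant. The middle of FLO11 is known to hold tandem repeats, and the sources used here do not say how reads in such repeats were placed. The bounds of this stretch were set after its values had been seen.

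The region upstream of FLO11 is known for a pair of long non-coding RNAs. ICR1 runs towards FLO11 on the same strand and PWR1 lies on the opposite strand. ICR1 spans 209 to 3407 bp upstream of the FLO11 start in the gene table. RNA over ICR1 was 0.193 to 0.270 on the strand of FLO11 in the 6 libraries that cover it, and 0 to 0.0542 on the other strand in 8 libraries. Over PWR1, from 2324 to 3264 bp upstream, RNA on the strand opposite to FLO11 was 0 to 0.113 in 8 libraries, and on the strand of FLO11 0.113 to 0.374. RNA of the ICR1 orientation was thus the higher of the strands over both intervals. Rpb3 over ICR1 was 40.1 and 35.2 in asynchronous WT, 32.8 and 33.0 in arrested WT, 25.7 and 26.7 in the asynchronous double mutant and 33.4 and 30.7 in the arrested double mutant. Both asynchronous libraries of the double mutant were lower than all others over ICR1. FLO11 lies at 389551 to 393700 on chromosome IX (Crick strand, files' coordinates), 46.2 kb from the chromosome end.

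**Figure D4:**
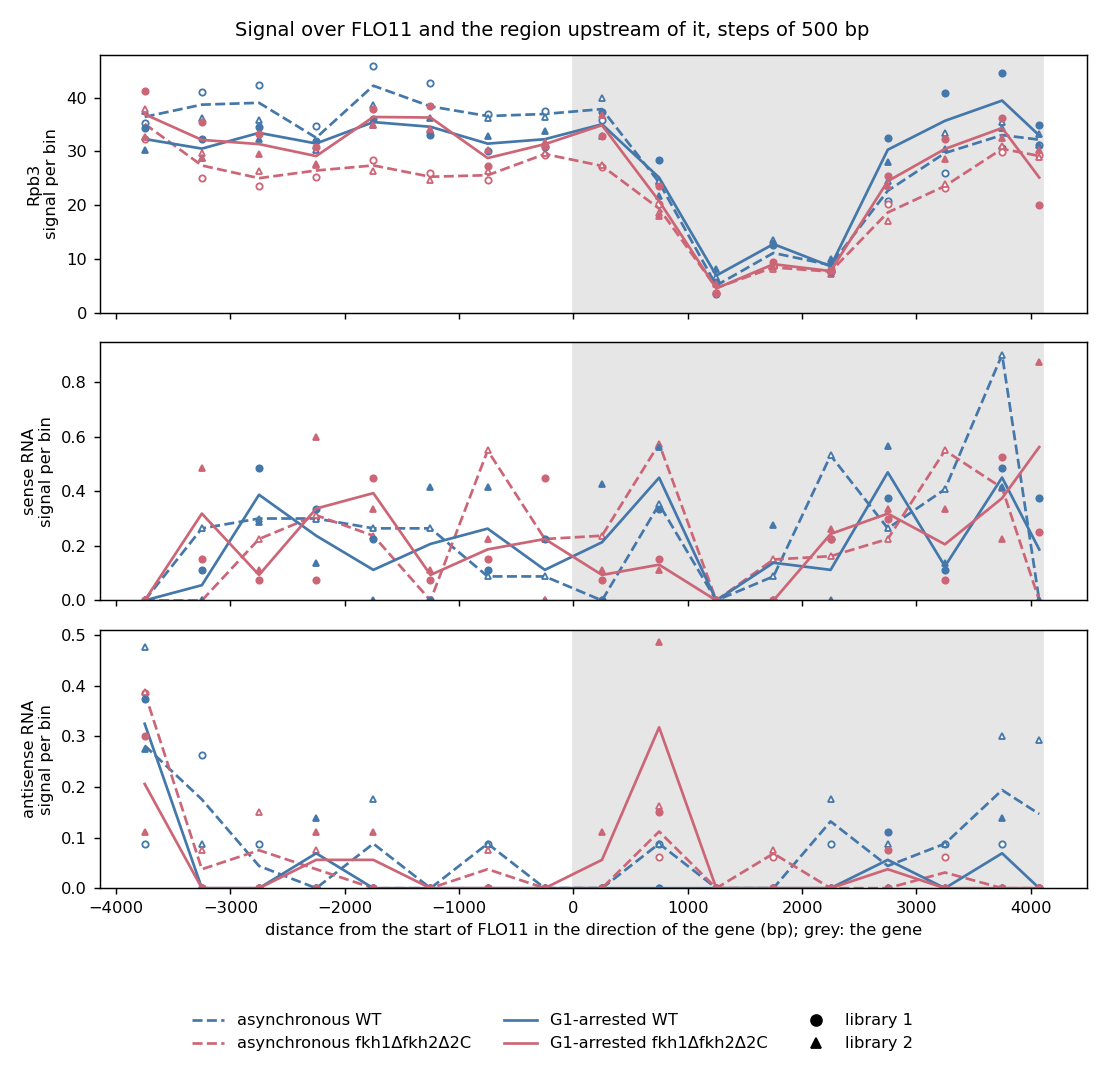
Rpb3, sense RNA and antisense RNA signal (mean per bin, arbitrary units) in steps of 500 bp from 4000 bp before the start of FLO11 (distance 0) to its end, with WT in blue, the double mutant in red, dashed lines for asynchronous and solid lines for arrested group means, points for single libraries and the gene in grey. Rpb3 falls to between 4.53 and 12.8 (group means) from 1000 to 2500 bp inside the gene in all groups, and upstream the dashed red line (asynchronous, double mutant) runs lowest from 3500 bp upstream to the start. Asynchronous sense RNA comes from 1 library per strain.

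No member was called between the strains in either assay or stage. In Rpb3, 0% of all genes tested were called in either stage with limma, and 23.8% when asynchronous and 3.57% under arrest had an unadjusted p under 0.05. In RNA, 0% were called when asynchronous and 0.074% under arrest (4.02% and 8.11% at an unadjusted p under 0.05). FKH1, whose signal is lost in the double mutant, was not called either. The Rpb3 filter left it out. Its RNA was 0.6 in the 1 asynchronous WT library that covers its strand, 0.194 ± 0.116 in arrested WT (SD, n = 2) and 0 in the double mutant. A lack of calls between strains here therefore does not show that the strains are alike. The Rpb3 interaction of strain and arrest was called for 0% of genes with limma (5.22% at an unadjusted p under 0.05, none of them a member). In asynchronous cells both libraries of the double mutant had less Rpb3 than both WT libraries over 6 of the 8 genes, FLO11, FLO8, MSS11, TEC1, MGA1 and PGU1. Of all 6003 genes, 34.7% showed the same order. PGU1 had the lowest ratio of means, 0.762, with a log2 difference of -0.34 (limma adjusted p = 0.195). TEC1 followed at 0.798 and -0.31 (limma adjusted p = 0.263). FLO11 had a ratio of 0.817 and an unfiltered difference of -0.24 (limma adjusted p = 0.233). PGU1 was the 1 of the 6 tested members with an unadjusted p under 0.05 here. Without the first asynchronous WT library no member was called between the strains, where 0.444% of genes were when asynchronous and 0.426% under arrest, and none for the interaction, where 0.148% were. Without the second, PGU1 (-0.29, limma adjusted p = 0.0493) and TEC1 (-0.38, limma adjusted p = 0.0309) were called lower and SFG1 was called higher (0.41, limma adjusted p = 0.0318). In that fit, where the library that stood apart is the 1 asynchronous WT library left, 49.2% of all genes were called, so the 3 of 6 members are near the background.

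In arrested cells, the log2 difference between strains in Rpb3 was 0.01 for TEC1 (95% interval -0.38 to 0.41), -0.03 for MSS11 (-0.17 to 0.12) and -0.13 for PGU1 (-0.36 to 0.11). For PHD1 it was -0.37 (-0.78 to 0.04) with both libraries of the double mutant below both WT libraries, and for SFG1 0.36 (-0.34 to 1.05) with both above. All had a limma adjusted p of 1.0. FLO11 also had both libraries of the double mutant below both WT libraries, with an unfiltered difference of -0.19 (-0.42 to 0.04) that did not pass. The share of all genes with such an order under arrest was not counted. In RNA, the SFG1 mean of the double mutant was 0.503 of WT when asynchronous (-0.93, limma adjusted p = 1.0) and 1.96 of WT under arrest (0.85, limma adjusted p = 0.572). PGU1 sense RNA under arrest was lower in both libraries of the double mutant (-1.54, limma adjusted p = 0.609).

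**Figure D5:**
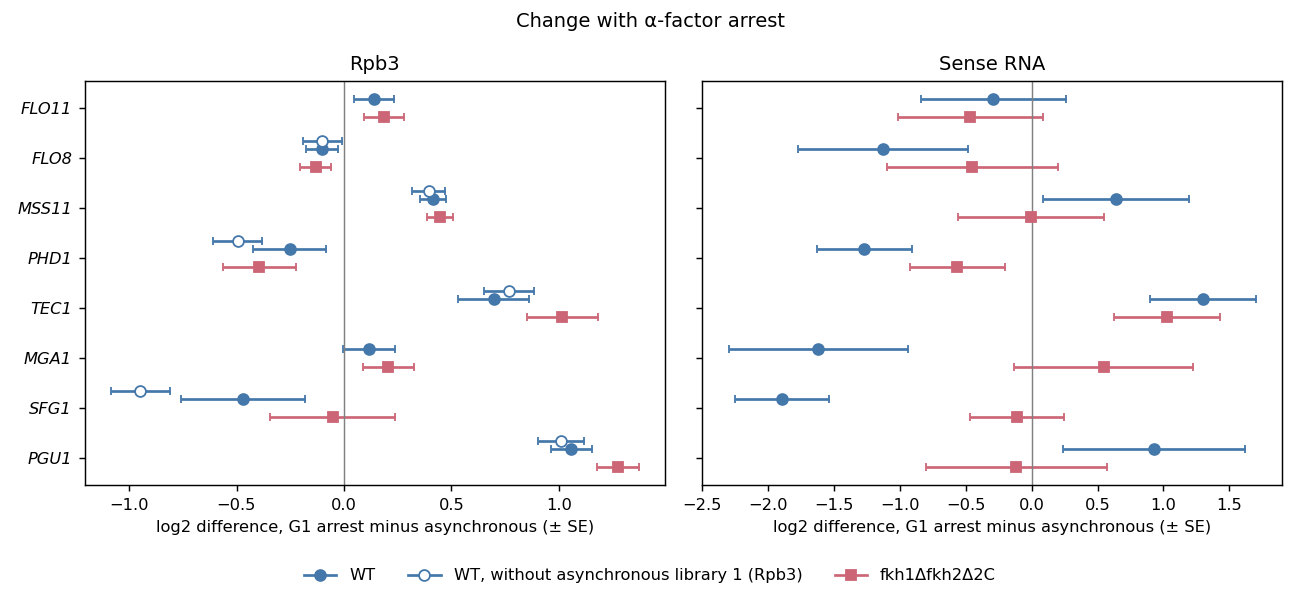
Log2 difference, G1 arrest minus asynchronous, of Rpb3 and of sense RNA for the 8 genes, with bars for 1 standard error, filled blue circles for WT, open circles for WT without the first asynchronous Rpb3 library and red squares for the double mutant. FLO11 and MGA1 in Rpb3 come from the fit without a filter. PGU1 (1.06 and 1.27), TEC1 (0.70 and 1.02) and MSS11 (0.41 and 0.45) lie above 0 in Rpb3 in both strains, and SFG1 moves to -0.95 without that library.

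Genes around the 8 were counted from lists of the same pathways. Of 12 genes of the filamentation MAP kinase pathway, 1 was called higher in WT in each assay. Of all genes tested, 0.944% were higher in WT RNA and 2.37% in WT Rpb3. DIG2, an inhibitor of Ste12, rose in RNA by 2.48 (limma adjusted p = 0.00756), and STE12 rose in Rpb3 by 1.14 (limma adjusted p = 0.0268). STE12 RNA was 0.858 ± 0.0901 in asynchronous and 0.746 ± 0.180 in arrested WT, and 0.765 ± 0.124 and 0.755 ± 0.152 in the double mutant (SD, n = 2). None of the 12 was called in the double mutant, where 0.74% of all genes were in RNA and 2.33% in Rpb3. Unadjusted limma p-values were under 0.05 there for 2 in RNA and 3 in Rpb3, beside 9.42% and 14% of all genes. Without the first asynchronous WT Rpb3 library, 2 of the 12 were higher in WT, where 5.39% of all genes were, among them STE12 (0.97). In the double mutant 4 were higher in that fit, where 9.94% of all genes were, among them STE12 (0.88), DIG2 (0.66) and KSS1 (0.50). KSS1 encodes the MAP kinase of the branch. The median log2 difference of the list in Rpb3 was 0.09 in WT and 0.12 in the double mutant, beside -0.02 over all genes in each.

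Of 10 genes of the cAMP and protein kinase A pathway none was called in either assay with limma, and without that library SFL1, which encodes a repressor of FLO11, was higher in Rpb3 in both strains (0.37 in WT, 0.26 in the double mutant). That is 1 gene of 10, where 5.39% of all genes were higher in WT and 9.94% in the double mutant. SFL1 RNA had lower group means under arrest, from 0.891 ± 0.126 to 0.401 ± 0.107 in WT and from 0.709 ± 0.349 to 0.354 ± 0.185 in the double mutant (SD, n = 2), which did not pass with limma (adjusted p = 0.253 and 0.598). Unadjusted, 1 of the 10 in RNA and 2 in Rpb3 had a p under 0.05 in WT, and 0 in the double mutant. Of all genes, 18.5% in RNA and 17% in Rpb3 did in WT, and 9.42% and 14% in the double mutant. Of 11 other regulators of FLO11, HMS2 fell in WT RNA by 1.82 (limma adjusted p = 0.0228) and ASH1, a regulator known from daughter cells, fell in WT Rpb3 by 0.92 (limma adjusted p = 0.0157). Of all genes tested, 1.3% fell in WT RNA and 1.37% in WT Rpb3. In the double mutant none of the 11 was called (1 in RNA and 2 in Rpb3 at an unadjusted p under 0.05, limma). Without that library 3 of the 11 fell in WT Rpb3 (ASH1 -0.98, HMS2 -0.71, GCN4 -0.57), where 5.44% of all genes fell. The same 3 fell in the double mutant (-0.57, -0.55 and -0.39), where NRG1, a repressor of FLO11, rose by 0.28 and where 11.2% of all genes fell and 9.94% rose. GCN4 RNA in WT was not lower under arrest, with 11.1 in the 1 asynchronous library that covers its strand and 13.1 ± 1.98 under arrest (SD, n = 2). The flocculin genes FLO1, FLO5, FLO9 and FLO10 were low like FLO11, at 6.99 ± 1.29, 21.2 ± 3.09, 10.3 ± 0.908 and 22.6 ± 0.723 in asynchronous WT Rpb3 (SD, n = 2). None of them passed the Rpb3 filter, 2 were tested in RNA and none was called there (0 at an unadjusted p under 0.05). Flocculin genes share near-identical repeats, so reads could be split between them.

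Among 7 other targets of Tec1 and Ste12, members moved in opposite directions. NFG1, a negative regulator of the filamentous growth MAP kinase pathway, rose in Rpb3 by 0.78 in WT (limma adjusted p = 0.0121) and by 1.10 in the double mutant (limma adjusted p = 0.00543). Its RNA was also called in WT (limma adjusted p = 0.00756), but it was listed at 0 in the 1 asynchronous WT library that covers its strand, so no fold is given. It was 1.07 ± 0.262 in arrested WT (SD, n = 2). CLN1, a G1 cyclin gene, fell in WT by 3.10 in RNA (limma adjusted p = 0.00499) and by 0.97 in Rpb3 (limma adjusted p = 0.0101), and in the double mutant by 0.78 in Rpb3 (limma adjusted p = 0.0285). None was called in RNA of the double mutant (3 at an unadjusted p under 0.05, limma, as were 9.42% of all genes). Of all genes tested, 0.944% rose and 1.3% fell in WT RNA. In Rpb3, 2.37% rose and 1.37% fell in WT, and 1.74% rose and 0.592% fell in the double mutant. Without that library SVS1, a cell wall protein gene, also fell in WT (-0.87), and KSS1 rose in the double mutant (0.50).

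The mating targets of Ste12 changed far more than the 8 genes. Of 9, 8 were higher in RNA in each strain, all 9 in WT Rpb3 and 8 in Rpb3 of the double mutant. Of all genes tested, 0.944% and 0.444% were higher in RNA and 2.37% and 1.74% in Rpb3, in WT and the double mutant. The median log2 difference of the 9 was 3.87 and 3.25 in RNA and 2.58 and 2.80 in Rpb3, in the same order. FIG2, a cell adhesion gene of mating, rose by 6.27 in WT RNA (limma adjusted p = 0.000456) and 4.42 in WT Rpb3 (limma adjusted p = 0.00147). PRM1, FIG1 and AGA1, genes of cell fusion and agglutination, rose in WT by 5.93, 5.18 and 4.33 in RNA and by 3.08, 3.33 and 4.03 in Rpb3. For the double mutant, FIG2, FIG1, PRM1 and AGA1 rose by 5.89, 5.58, 5.54 and 4.59 in RNA. The PGU1 gain of 1.06 in Rpb3 is below all of these.

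Markers of a cells, the mating type that responds to α-factor, were present. Of 6 tested, 4 rose in WT and 3 in the double mutant in each assay, beside the shares of all genes given for the mating targets. AGA2, ASG7 and MFA1 rose in WT Rpb3 by 2.51, 2.23 and 1.84. STE2, the α-factor receptor gene, rose in WT by 1.43 in Rpb3 and 1.29 in RNA. The Rpb3 signal summed over the 7 a-cell genes was 592 to 788 in the asynchronous and 1755 to 2052 in the arrested libraries. BAR1, an a-cell gene for an α-factor protease, was at 0 in all RNA libraries and in 7 of 8 Rpb3 libraries, so it adds almost nothing to that sum. Its highest group mean in Rpb3 was 0.00676, below that of the deleted FKH1 in the double mutant (3.39 and 5.36). The sources used here do not say whether these strains carry BAR1, and this was not tested. The 4 α-cell markers had a summed Rpb3 signal of 104 to 113 in the asynchronous and 106 to 170 in the arrested libraries. Their summed RNA was 0.553 and 0.385 in the asynchronous libraries that cover all of them, and 0.849 to 5.13 in the arrested ones. Under arrest at least 2 of the 4 were at 0 in every RNA library. SAG1, the α-agglutinin gene, rose in RNA of the double mutant by 3.66 (limma adjusted p = 0.0382). SAG1 RNA in that strain was 0.250 in the 1 asynchronous library that covers its strand and 3.97 ± 1.29 under arrest (SD, n = 2). In WT its RNA difference was 1.78, which was not called. The part of the a-cell and α-cell markers in the member results was not tested. No gene of these pathway and marker lists was called between the strains. In asynchronous Rpb3, the 10 genes of the cAMP and protein kinase A pathway had a median difference between strains of -0.39, beside -0.03 over all genes. Unadjusted limma p-values were under 0.05 for 5 of them, beside 23.8% of all genes. Without the first asynchronous WT library that median was -0.16. The list was not tested as a set.

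For each member the 3 genes with the most similar Rpb3 pattern were taken by the root mean square distance between log2 values over the 8 libraries, each gene centred on its own mean. For TEC1 these were PAH1 (0.0841), PET494 and YKL102C. For PGU1 they were GFA1 (0.114), TMN2 and KAR5, and for MSS11 RGD2 (0.0419), GIP1 and TEA1. FLO8, which varied over a log2 range of 0.25, had KRE9 (0.0257), RIB4 and BET2 nearest. FLO11 had YPR196W (0.0482), MSC7 and CCC2, and MGA1 had EHD3 (0.0453), YLR255C and SPT8. PHD1 had VTC1 (0.0977), MAK3 and MIM2, and SFG1 had the most distant nearest genes, VPS75 (0.171), PLB2 and ECM33. The 8 libraries share their normalization.

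Set in order by Rpb3 in asynchronous WT, the 8 genes ran from TEC1 (76.0 ± 5.65) over PHD1 (60.5 ± 15.1), SFG1 (58.1 ± 28.0), FLO8 (32.3 ± 0.0553), PGU1 (30.1 ± 1.56), MSS11 (26.8 ± 0.611) and MGA1 (23.5 ± 0.688) to FLO11 (22.0 ± 2.67; SD, n = 2). The libraries of SFG1 overlapped those of PHD1, and those of MGA1 overlapped those of FLO11, while the other neighbours in this order did not overlap. In arrested WT the order was TEC1 (125.4 ± 0.940), PGU1 (67.0 ± 5.23), PHD1 (49.6 ± 6.50), SFG1 (38.5 ± 2.34), MSS11 (37.0 ± 2.06), FLO8 (29.8 ± 1.76), MGA1 (26.0 ± 4.44) and FLO11 (24.6 ± 2.80). PGU1 had moved past FLO8, SFG1 and PHD1. SFG1 overlapped MSS11 there, and MGA1 overlapped both FLO8 and FLO11.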

How the data were processed

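The authors deposited a table per assay with a normalized signal per 50 bp bin, per the file headers. The sources used here name no aligner, genome build or normalization method, and depth is unknown. 2 RNA columns that share a name were not used. Genes of the R64 table (RefSeq) were placed by matching them to the stranded RNA signal, since 95.12% needed no shift of the build. The mean over each gene's bins was tested with limma 3.58.1 in R 4.3.3 on log2(signal + 10% of the median over genes, 0.0604 for RNA and 3.94 for Rpb3), with a variance trend and the 4 groups of an assay in 1 fit. The lowest 10% of genes were left out and p-values (2-sided) were Benjamini-Hochberg adjusted over all genes tested. The added constant understates changes of low genes. In simulated data for the comparison of strains under arrest (5402 genes), 34 of 100 changes of log2 2 and 0 of 100 of log2 1 were recovered in RNA, and 97 and 78 of 100 in Rpb3.

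The named genes are the 8 members, FKH1 and FKH2, from each pathway or marker list up to 4 called genes per comparison with the largest difference, and the 3 genes most like each member. The values of 1 called list gene are not reported here. The members and lists were chosen with earlier results of these data known. Alternatives were no filter, R64 coordinates as given, the median over bins, a replicate block, 50% of the median as constant, no variance trend, libraries centred on their median, only the groups compared, and leaving out each library. Added after the data had been seen were the antisense fit, a fit of Watson-strand genes, FLO11 without its low stretch, and the list counts without the first asynchronous WT Rpb3 library.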

Additional observations from a re-analysis of the deposited data

Results flagged for a closer look

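The BrdU libraries were used in no comparison above, and the signal within 2500 bp of SFG1 was flagged in them for its ratio to WT. Cells were released from α-factor into hydroxyurea and BrdU for 1 hour, so that the signal marks early replicated DNA. Near SFG1 it was 51.1 ± 9.45 (SD, n = 2) in the strain labelled fkh1Δfkh2Δ2C, from libraries at 57.8 and 44.4, over 1.5 times the WT mean of 33.0 ± 3.31, from libraries at 35.3 and 30.6. It was 45.7 ± 6.12 in fkh1Δfkh2Δ, 43.2 ± 1.11 in fkh1Δ and 37.0 ± 1.54 in fkh2Δ. The second fkh2Δ library carries fkh1Δ in its strain tag. Both WT libraries were below all mutant libraries. The difference was not tested. How many other genes show such an order or ratio was not counted, so neither is known to be particular to SFG1.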

How the results depend on the processing

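The WT arrest count of 1 member in RNA went to 0 with no filter, with the median over bins (2 members tested) and with only the groups compared, and to 0 in all 8 leave-outs. In Rpb3 the WT count of 2 went to 0 with only the groups compared and ranged from 0 to 5 in leave-outs. The count of 3 in the double mutant ranged from 0 to 4, and that of 0 between strains in asynchronous Rpb3 from 0 to 3. SFG1 there (-0.06) was -0.54 without the first asynchronous WT library and reversed to 0.41 without the second. The cause was not tested. With only Watson-strand genes SFG1 passed in WT RNA (limma adjusted p = 0.0105). Without a filter (limma adjusted p = 0.0394) or variance trend (limma adjusted p = 0.0153), TEC1 passed in WT Rpb3.

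The replicate numbers give 2 pairs per comparison and no label says that a number marks a shared source. Replicate differences correlated by 0.0115 to 0.118 in RNA and 0.0229 to 0.466 in Rpb3. A fit with the replicate block called 1 member in RNA and 2 and 3 in Rpb3, and changed no member's call. It called 281 genes in WT RNA and 86 in RNA of the double mutant, beside 121 and 40 without it.

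Counts over all genes moved by more than 1.5 times in these settings. With only the groups compared, WT arrest had 7 in RNA and 0 in Rpb3 (202 before), and the double mutant 0 in RNA and 1109 in Rpb3 (126 before). The median over bins gave 21 and 13 in RNA, no trend 18 in RNA of the double mutant, and no filter 38 between asynchronous strains and 39 for the interaction in RNA. The 4 genes between arrested strains in RNA became 2 with the larger constant, 11 with the block and 0 with no filter, the median or only the groups compared. Between strains in Rpb3, only the groups compared gave 17 under arrest and no trend 1 when asynchronous. Leave-outs gave 23 to 91 and 0 to 38 in arrest RNA, 22 to 2229 and 0 to 1142 in arrest Rpb3, 0 to 28 and 0 to 2658 between strains in Rpb3 and 0 to 1853 for its interaction. With 1 library left in a group, it is assumed to vary like the others.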

Other observations

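TEC1 was the only other member of the 8 with much BrdU signal within 2500 bp. It had 52.6 ± 1.53 in WT, 52.0 ± 0.0585 in fkh2Δ, 47.6 ± 0.268 in fkh1Δ, 43.0 ± 3.67 in fkh1Δfkh2Δ2C and 37.6 ± 1.41 in fkh1Δfkh2Δ (SD, n = 2). The libraries of both double mutants, at 36.6 to 45.6, were below all WT libraries, at 51.5 and 53.7, and below those of the single mutants. Near FLO11, FLO8, MSS11, PHD1, MGA1 and PGU1 the signal was 0.961 to 3.72 in the 10 libraries. No test was made on BrdU, and the share of all genes with such an order of strains as near TEC1 was not counted.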
